A study of Mus musculus with 9 samples.

Results

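The genes of the perineuronal net, 8 of the 14444 genes measured, were followed across 9 prefrontal cortex libraries of Shank3 mutant and wild-type mice. They were taken from the table by symbol: the lecticans Acan, Bcan, Ncan and Vcan, the link protein genes Hapln1 and Hapln4, the tenascin gene Tnr and the hyaluronan synthase gene Has3. All 8 were found, each with reads in every library. Acan was chosen by its deposited values, in which it was among the genes of smallest p between UNC0642-treated and saline-treated mutants, and the other 7 as known components of the same matrix. The difference of Acan in that contrast is therefore a description, with no test. The groups were Shank3 mutant mice given UNC0642, Shank3 mutant mice given saline and wild-type mice given saline, with 3 libraries in each, all aged 5 to 8 postnatal weeks. UNC0642, an inhibitor of the histone methyltransferases EHMT1 and EHMT2, was given by intraperitoneal injection on 3 days, with 1 dose of 1 mg per kg each day. Shank3 encodes a scaffold of excitatory synapses. The labels write the genotype as SHANK3, without an allele, and give neither sex nor the animal behind each library. The p-values below therefore measure the spread between these libraries, which may be technical.

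Perineuronal nets are lattices of extracellular matrix that form around certain neurons after birth, in cortex mainly around fast-spiking parvalbumin interneurons, and they are known for their part in closing periods of high plasticity. Hyaluronan, made at the cell surface by hyaluronan synthases, forms the backbone. Lecticans, which are chondroitin sulfate proteoglycans, bind this backbone at one end with the help of link proteins and are cross-linked at the other end by tenascin-R. Aggrecan, the product of Acan, is the lectican most closely tied to nets, while brevican, neurocan and versican are also found in the loose matrix of the brain.

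The 4 lectican genes each lie beside a link protein gene, with 0 protein-coding genes between them in RefSeq. Acan pairs with Hapln3 on chromosome 7, Bcan with Hapln2 on chromosome 3, Ncan with Hapln4 on chromosome 8 and Vcan with Hapln1 on chromosome 13. RefSeq promoters of build GRCm38.p6, from 250 bases before to 50 bases after the start, were matched for 6 of the 8 genes. Those of Acan (chr7:79052976-79053275, plus strand), Vcan (chr13:89742463-89742762, minus strand) and Ncan (chr8:70120795-70121094, minus strand) are shown 5′ to 3′ along the gene because the reads of these 3 lecticans were lower in the same 5 libraries. Capitals mark the GC box GGGCGG, a motif of Sp family factors, on either strand.
Acan: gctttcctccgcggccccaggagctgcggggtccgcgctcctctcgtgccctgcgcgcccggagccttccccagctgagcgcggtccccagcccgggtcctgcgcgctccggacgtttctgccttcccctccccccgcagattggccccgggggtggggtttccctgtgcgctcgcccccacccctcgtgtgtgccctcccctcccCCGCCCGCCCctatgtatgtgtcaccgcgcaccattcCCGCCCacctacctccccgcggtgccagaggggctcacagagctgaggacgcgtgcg
Vcan: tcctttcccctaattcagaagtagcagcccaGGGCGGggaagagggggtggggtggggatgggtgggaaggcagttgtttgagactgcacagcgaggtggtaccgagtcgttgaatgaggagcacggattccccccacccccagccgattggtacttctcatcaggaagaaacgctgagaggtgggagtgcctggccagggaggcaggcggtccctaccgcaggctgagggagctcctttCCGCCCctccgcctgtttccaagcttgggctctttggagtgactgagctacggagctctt
Ncan: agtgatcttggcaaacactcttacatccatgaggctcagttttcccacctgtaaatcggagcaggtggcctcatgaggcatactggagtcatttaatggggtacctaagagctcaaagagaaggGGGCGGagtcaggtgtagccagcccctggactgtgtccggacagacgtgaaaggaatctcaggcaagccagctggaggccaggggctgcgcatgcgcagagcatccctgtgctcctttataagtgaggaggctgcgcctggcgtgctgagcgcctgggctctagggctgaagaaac
The Acan window held 3 GC boxes, of which the adjoining pair overlaps in a single run, and 31 CG dinucleotides at a GC content of 74%. It had more CG dinucleotides than 89.4% of the 32851 promoters compared, whose median was 7. The Vcan window held 2 GC boxes and 12 CG dinucleotides. The Ncan window held 1 GC box, 9 CG dinucleotides and 1 match to the TATA box letters TATAAA, on the strand opposite to the gene. Bcan had 24 CG dinucleotides and 1 GC box, and Hapln1 and Tnr had 3 CG dinucleotides and 0 GC boxes each. The reads of Hapln1 and Tnr were lower in the same 5 libraries too, while those of Bcan overlapped. GGGCGG was present on either strand in 35.7% of the promoters compared and TATAAA in 13.6%. These matches describe the letters of the windows and are not evidence of binding.

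Levels and differences of the net genes depend on an adjustment found in the deposited values. It centres 2 sets of libraries on the same mean log2 value, gene by gene, to within 2.496e-09. One set holds the wild type with UNC0642 replicates 2 and 3, the other the saline mutants with UNC0642 replicate 1, and any difference between the sets has been removed. The whole reads behind the values were recovered for 14444 of 14444 genes and came to between 12035098 and 16165483 per library. They are given here as RPM, the recovered reads per 1000000 of the authors' scaled library size. In these reads the first principal component, with 51.7% of the variance, set the wild-type libraries, joined by UNC0642 replicate 3, apart from the saline mutants, joined by UNC0642 replicates 1 and 2. Treated mutants thus lie on both sides of the division, whereas saline mutant and wild type lie on 1 side each. Genotype and division cannot be told apart between saline mutant and wild type except through UNC0642 replicate 3. UNC0642 replicate 2 was adjusted with the wild type but lay with the saline mutants in its reads.

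The net genes spanned a wide range of levels per kilobase of exon. Bcan was the most abundant, with 74.7 ± 9.34 recovered RPM per kb in UNC0642 mutants, 73.6 ± 2.57 in saline mutants and 83.2 ± 13.1 in wild type (SD, n = 3 each). Ncan followed with 41.8 ± 5.53, 38.9 ± 0.432 and 48.05 ± 3.46 in the same groups. Hapln4 had 24.3 ± 4.11, 25.4 ± 1.87 and 25.2 ± 5.95 per kb. These 3 genes stood apart from each other by more than their SDs. Tnr lay at 8.80 ± 1.27, 8.95 ± 0.364 and 10.1 ± 0.237, and Hapln1 at 4.99 ± 1.35, 4.87 ± 0.0791 and 5.60 ± 0.311. Vcan had 1.63 ± 0.623, 1.34 ± 0.101 and 2.25 ± 0.617, and Tnr, Hapln1 and Vcan were likewise apart by more than their SDs. Acan and Has3 were the lowest, Acan with 0.192 ± 0.161, 0.186 ± 0.0660 and 0.626 ± 0.0533 and Has3 with 0.411 ± 0.0864, 0.387 ± 0.0692 and 0.504 ± 0.148. Acan was below Has3 by more than the SDs in saline mutants only; in UNC0642 mutants and in wild type the 2 genes did not differ beyond their spread. Tnr and Has3 are overlapped on the other strand by Gm38039 and Chtf8, and as the strand setting of the counting is not given, reads of these pairs may not be fully separated.

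**Figure D1:**
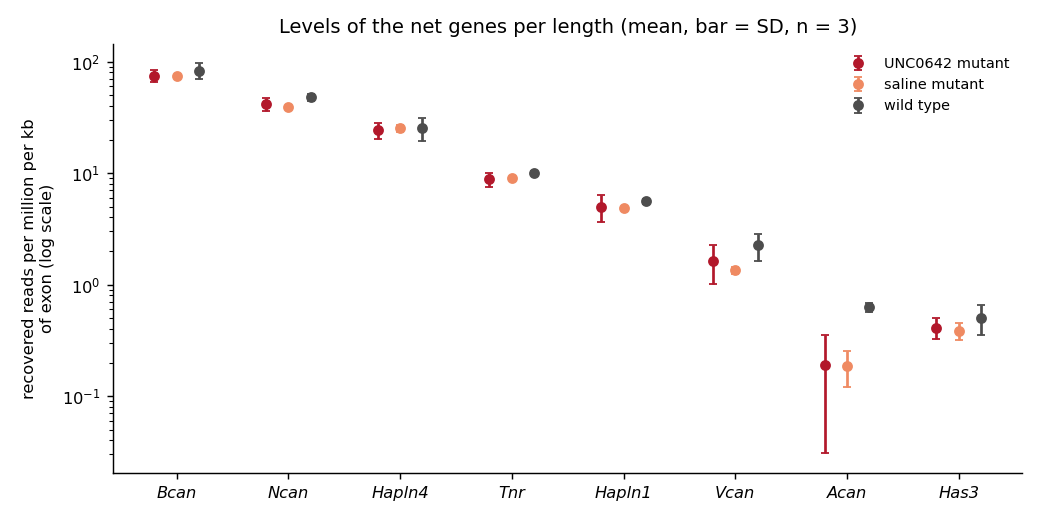
Recovered RPM per kb of exon (log scale) for the 8 net genes, with a point for the mean of each group and bars for the SD of 3 libraries. Bcan lies between 73.6 and 83.2 in the 3 groups, and Acan at 0.192 and 0.186 in the mutant groups, against 0.626 in wild type.

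Acan was the net gene with the largest factor of adjustment between its reads and its deposited values. In the deposited values it stood at 0.926, 0.854 and 1.71 in UNC0642 mutants, at 2.41, 3.62 and 2.05 in saline mutants and at 2.58, 2.97 and 2.99 in wild type. The 3 treated libraries lay below all others, and saline mutants overlapped wild type. The recovered reads gave another order of groups, with 4, 20 and 41 reads in UNC0642 mutants, 15, 29 and 14 in saline mutants and 49, 64 and 62 in wild type. As RPM these were 0.327, 1.23 and 2.68 in UNC0642 mutants, 1.20, 1.91 and 0.987 in saline mutants and 4.15, 4.81 and 4.85 in wild type. Here UNC0642 mutants overlapped saline mutants, and every mutant library lay below every wild-type library. The 4 reads of UNC0642 replicate 1 have an exact 95% Poisson interval of 1.09 to 10.2 reads, and the 14 to 29 reads of saline mutants have intervals between 7.65 and 41.6 reads; these cover counting error only.

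The adjustment had changed Acan by more than it changed 99.6% of genes. Before it, the mean log2 value of the saline mutant set stood at -1.52 relative to the wild-type set, against a median absolute set difference of 0.17 over all genes. The adjustment divided Acan by 1.70 in the wild-type set and multiplied it by the same factor in the saline mutant set. UNC0642 replicate 2 and saline mutant replicate 1 thus had similar RPM, 1.23 and 1.20, but deposited values of 0.854 and 2.41. The factor was 1.27 for Vcan, 1.09 for Ncan, 1.08 for Hapln1 and 1.06 for Bcan, and 1.03 for each of Hapln4, Tnr and Has3.

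**Figure D2:**
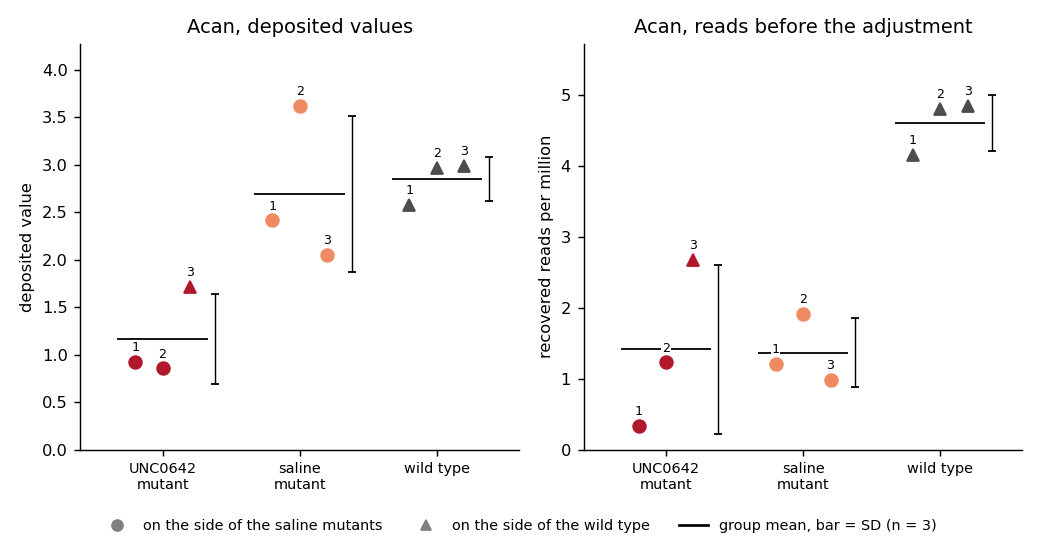
Acan in each library as the deposited value (left) and as recovered RPM before the adjustment (right), with a horizontal line for the group mean and a bar for the SD of 3 libraries. On the left the treated libraries are lowest, up to 1.71; on the right both mutant groups lie below the wild type, whose lowest library is at 4.15.

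UNC0642-treated mutants were compared with saline-treated mutants to ask what EHMT1/2 inhibition changes. Acan differed by a log2 value of -0.95 (SE 0.25) in the deposited values, on the log2(value + 0.5) scale. Its treated libraries lay wholly below its saline libraries, a pattern that 3.06% of all genes showed. As Acan was chosen by this contrast, its separation is a description and not a result about the net genes. Wholly above lay 0 of the 8, against 3.17%. The other 7 genes overlapped between the groups, and their differences ran from -0.24 (SE 0.17) for Vcan to 0.02 (SE 0.22) for Has3. With limma over all 14444 genes, 0 of the 8 were called at an adjusted p under 0.05, against a background of 0%, and the adjusted p was 1 for each of the 7 genes other than Acan; 281 genes had an unadjusted p under 0.05. In the recovered reads of all 9 libraries, Acan differed by -0.24 (SE 0.56), and 0 of 8 genes were separated in the lower direction, against 5.28% of all genes, and 0 in the higher direction, against 4.56%. Vcan differed there by 0.26 (SE 0.25) and Ncan by 0.12 (SE 0.10), opposite in sign to their deposited differences. limma-voom called 0 genes in these reads, with 536 at an unadjusted p under 0.05.

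Within the 5 mutant libraries that lie on the same side of the division, 2 treated and 3 saline, Acan differed by -0.90 (SE 0.58). This rested on UNC0642 replicate 1: the difference was -0.09 without that library and -1.88 without UNC0642 replicate 2. Among the others, Hapln1 differed by -0.19 (SE 0.10), Tnr by -0.11 (SE 0.08), Hapln4 by 0.09 (SE 0.07) and Has3 by 0.23 (SE 0.30). Bcan, Ncan and Vcan stood at -0.06 (SE 0.06), 0.01 (SE 0.05) and -0.02 (SE 0.15). limma-voom called 0 of 8 net genes, against a background of 0%, and the smallest adjusted p over all genes was 0.737; 853 genes had an unadjusted p under 0.05.

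Saline-treated mutants were set against wild type to compare the genotypes. The adjustment centres the set of the wild type and the set of the saline mutants on the same mean, with UNC0642 libraries in both. This ties their deposited difference to the UNC0642 libraries, so it cannot by itself show whether the genotypes differ. In the deposited values all 8 genes overlapped, against 1.7% of genes separated in the lower and 1.73% in the higher direction. The log2 differences ran from -0.22 (SE 0.22) for Has3 to 0.03 (SE 0.13) for Hapln1, Acan stood at -0.10 (SE 0.25), and limma called 0 genes, with 19 at an unadjusted p under 0.05. In the recovered reads, 5 of the 8 genes, Acan, Ncan, Vcan, Hapln1 and Tnr, had every saline mutant library below every wild-type library, a pattern shown by 19.8% of all genes, and 0 of 8 lay wholly above, against 20.8%. The same 5 genes were wholly lower in the 5 libraries with the saline mutants than in the other 4, against 13.6% of all genes. These sides of the division were set by the same reads, so the count is not separate evidence. The following values are RPM.

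Among the lecticans, neurocan, a secreted proteoglycan, had 281, 275 and 347 in UNC0642 mutants, 278, 283 and 277 in saline mutants and 334, 329 and 374 in wild type. Ncan was lower in saline mutants than in wild type by a log2 difference of -0.32 (SE 0.10, limma-voom adjusted p = 0.0471), and UNC0642 replicate 3 lay among the wild-type libraries. Vcan, which encodes versican, had 14.6, 20.2 and 31.0 in UNC0642 mutants, 19.5, 17.7 and 16.9 in saline mutants and 23.7, 27.3 and 39.5 in wild type. Its difference of saline mutant from wild type was -0.73 (SE 0.24, limma-voom adjusted p = 0.0631), and again only UNC0642 replicate 3 among the mutant libraries reached the wild-type range. Bcan, which encodes brevican, had 206, 232 and 265 in UNC0642 mutants, 228, 241 and 226 in saline mutants and 233, 242 and 309 in wild type. Its groups overlapped, with a difference of -0.18 (SE 0.12, limma-voom adjusted p = 0.303) between saline mutant and wild type. Acan differed by -1.78 (SE 0.45) between saline mutant and wild type, with means of 1.37 ± 0.485 and 4.61 ± 0.392 RPM (SD, n = 3 each). As UNC0642 replicate 3, at 2.68, lay between the saline mutants and the wild type, Acan was the only lectican in which no mutant library reached the wild-type range.

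The link protein genes did not follow a single pattern. Hapln1, which stabilises the bond between lecticans and hyaluronan, had 23.4, 24.7 and 37.4 in UNC0642 mutants, 28.3, 27.8 and 27.4 in saline mutants and 30.4, 31.7 and 33.9 in wild type. The saline mutant libraries were close together and just below the wild type (log2 difference -0.22, SE 0.15, limma-voom adjusted p = 0.34), and UNC0642 replicate 3 was the highest of all. Hapln4, a brain link protein found at nets, had 95.7, 98.5 and 71.3 in UNC0642 mutants, 88.6, 88.8 and 100.5 in saline mutants and 104, 105 and 67.0 in wild type. UNC0642 replicate 3 and wild-type replicate 3 were the lowest, the 3 groups overlapped, and the difference of saline mutant from wild type was 0.02 (SE 0.15). Hapln2, the neighbour of Bcan and a link protein of myelinated axon nodes, was at 6.74 ± 2.64 in UNC0642 mutants, 5.47 ± 1.15 in saline mutants and 10.1 ± 2.42 in wild type (SD, n = 3 each), a difference of saline mutant from wild type of -0.89 (SE 0.29, limma-voom adjusted p = 0.062). Hapln3, the neighbour of Acan, had only 9 to 20 reads per library and a difference of 0.11 (SE 0.37).

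Tnr, which encodes the lectican cross-linker tenascin-R, had 112, 90.3 and 120.4 in UNC0642 mutants, 114, 106 and 107 in saline mutants and 120.2, 125 and 125 in wild type. The saline mutant libraries lay below the wild type by a small margin (log2 difference -0.19, SE 0.10, limma-voom adjusted p = 0.192). Has3, the hyaluronan synthase, had 3.19, 2.58 and 2.09 in UNC0642 mutants, 2.33, 2.11 and 2.96 in saline mutants and 2.63, 2.71 and 4.30 in wild type. These rest on 29 to 55 reads per library, the groups overlapped, and wild-type replicate 3 was the highest (difference of saline mutant from wild type -0.37, SE 0.29, limma-voom adjusted p = 0.392).

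**Figure D3:**
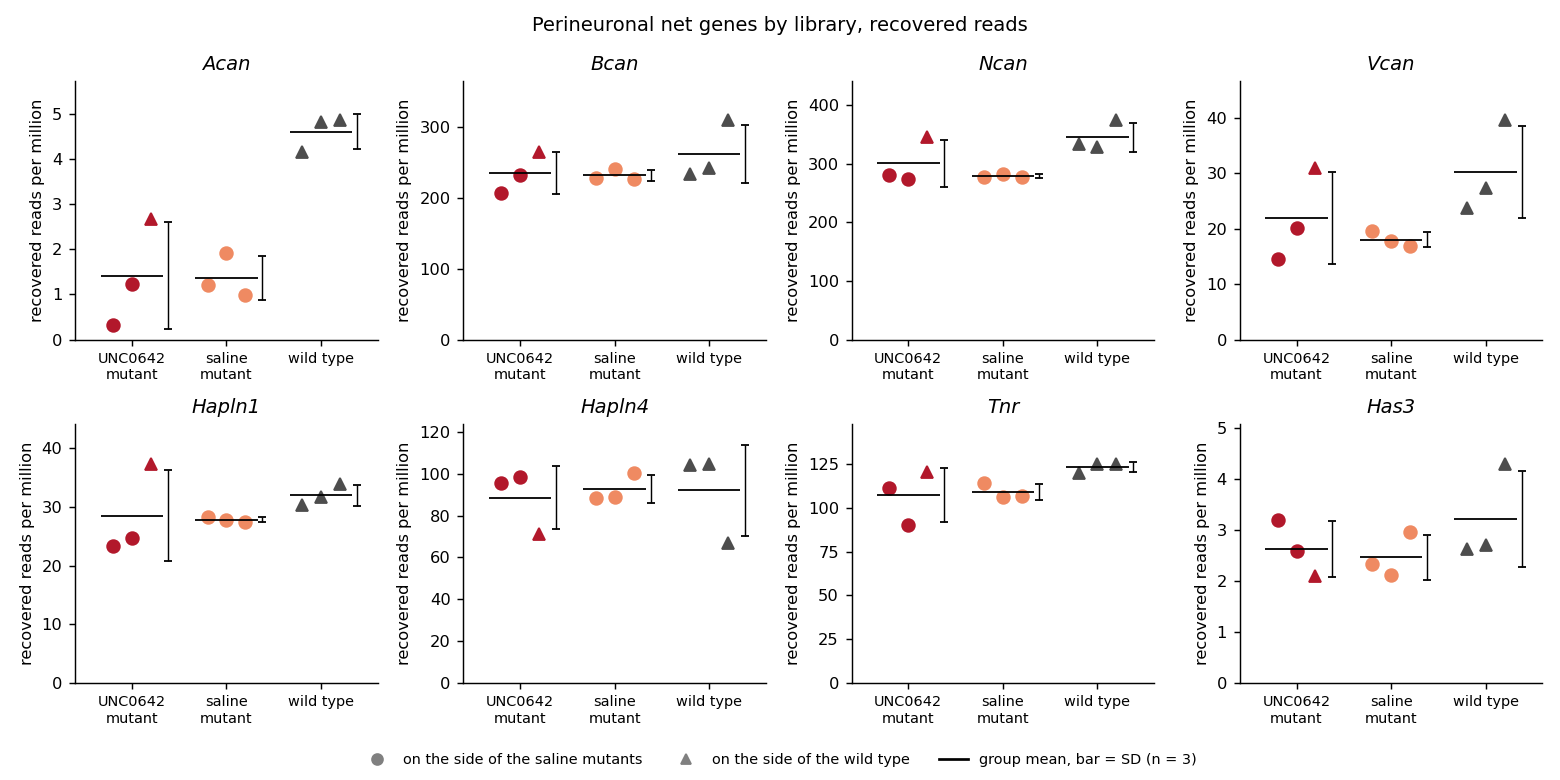
Recovered RPM of each net gene by library, with circles for libraries on the side of the saline mutants, triangles for those on the side of the wild type, lines for group means and bars for the SD of 3 libraries. UNC0642 replicate 3 is the highest treated library for the 4 lecticans, Hapln1 and Tnr, and the lowest for Hapln4 and Has3.

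By limma-voom on all 9 libraries, 2 of the 8 genes, Acan and Ncan, were called lower in saline mutants than in wild type, against 6.81% of all genes called lower. For Acan this call is a description, since the saline mutant libraries also entered the contrast by which it was chosen. This count did not hold when libraries were left out: it was 0 without wild-type replicate 2 or 3 or any 1 of the saline mutant libraries, and 3 without wild-type replicate 1, UNC0642 replicate 1 or UNC0642 replicate 3. With the division as a term, which leaves UNC0642 replicate 3 as the only link, Acan stood at 0.14 (SE 0.68), Ncan at 0.01 (SE 0.12) and Vcan at 0.10 (SE 0.32), and limma-voom called 0 genes, with 711 at an unadjusted p under 0.05. Hapln1 turned to 0.43 (SE 0.16) and Hapln4 to -0.41 (SE 0.23) in that fit.

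**Figure D4:**
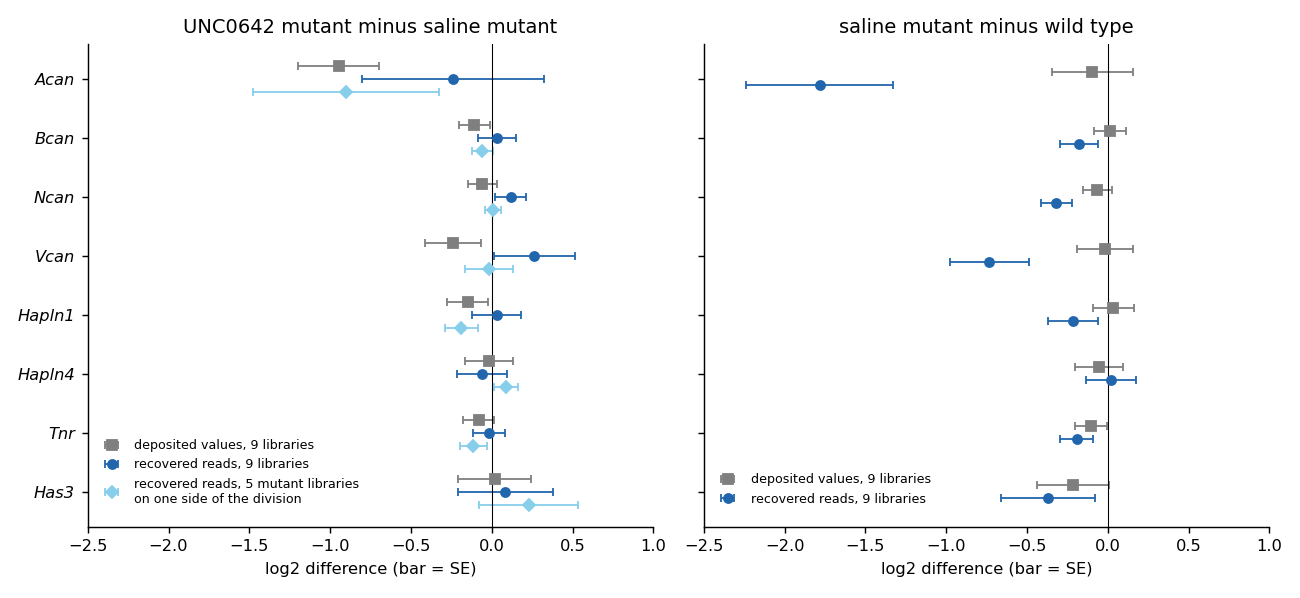
Log2 differences of the 8 net genes for UNC0642 mutant minus saline mutant (left) and saline mutant minus wild type (right), with bars for the SE, in deposited values (squares), in reads of 9 libraries (circles) and, on the left, in reads of the 5 mutant libraries that share a side (diamonds). Acan lies at -0.95 on the left and -0.10 on the right in deposited values, and at -0.24 on the left and -1.78 on the right in recovered reads.

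Treated mutants were also compared with wild type. In the deposited values all 8 genes had negative differences, from -0.07 (SE 0.15) for Hapln4 to -1.04 (SE 0.25) for Acan, and Acan alone was wholly below the wild type, against 5.84% of all genes, and 0 lay wholly above, against 5.85%. limma called 0 genes, with 1238 at an unadjusted p under 0.05. In the recovered reads Acan differed by -2.02 (SE 0.48) and was the only 1 of 8 wholly below wild type, against 8.71% of all genes, with 0 wholly above, against 8.7%. For Acan the values on both scales are a description, since the UNC0642 libraries also entered the contrast by which it was chosen. Vcan stood at -0.47 (SE 0.23), Tnr at -0.21 (SE 0.10) and Ncan at -0.20 (SE 0.10); limma-voom called 0 of the 8, against 0.0554% of all genes. With the division as a term 4 of the 8 were positive and 4 negative, and Acan stood at -0.76 (SE 0.54). The 3 comparisons share their libraries, so these values are not separate evidence of those above.

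The wider pathway was read from lists of net and matrix genes. Of 11 lecticans and partners, 7 of the 8 genes above with Hapln2, Hapln3, Tnc and Tnxb, 11 had negative deposited differences of UNC0642 mutant from saline mutant, with a median of -0.18 against 0.003 over all genes; limma called 0. Acan, which was chosen by this contrast, is among the 11. In the recovered reads of 9 libraries 6 were positive and 5 negative, with a median of 0.03 against 0.02 over all genes. Within the 5 mutant libraries on the same side of the division 3 were positive and 8 negative, with a median of -0.12 against 0.02, and limma-voom called 0. Between saline mutant and wild type, 8 of the 11 were negative in reads, with a median of -0.22 against -0.01 over all genes. The 2 called lower, Acan and Ncan, are those given above, against 6.81% of all genes. With the division as a term 8 of the 11 were positive, with a median of 0.10, and 0 were called.

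Over all genes, limma-voom called 5.13% higher and 6.81% lower between saline mutant and wild type in the recovered reads. The counts in the lists that follow are to be read against these shares. In this comparison 0 genes of any list were called with the division as a term. List genes not marked otherwise were named by their p in UNC0642 mutant minus saline mutant. The saline mutant libraries entered that choice, so the single values of these genes are a description. Genes that make chondroitin sulfate chains showed little between saline mutant and wild type in the recovered reads: of 23 measured, 12 were positive, 11 negative and 0 called by limma-voom, with a median of 0.005. Chsy1, a chain polymerase, differed by -0.07 (SE 0.14) and Csgalnact1, which starts the chains, by -0.08 (SE 0.11). Of 14 other chondroitin sulfate proteoglycans, 1 was called higher, Cspg5 at 0.23 (SE 0.07, limma-voom adjusted p = 0.0465), and 1 lower, Nrp1 at -0.66 (SE 0.16, adjusted p = 0.026), counts near the shares over all genes. Ptprz1, a receptor phosphatase also made as the soluble proteoglycan phosphacan, stood at -0.61 (SE 0.23, limma-voom adjusted p = 0.0932), and at 0.40 (SE 0.24) with the division as a term. Of 10 measured genes of hyaluronan synthesis and turnover, 8 were negative and 1 was called lower, the hyaluronan receptor gene Hmmr at -0.76 (SE 0.21, limma-voom adjusted p = 0.0392); the synthase genes Has1 and Has2 were not analysed here.

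Among 20 matrix proteases and inhibitors measured, 16 were negative between saline mutant and wild type, with a median of -0.13 in the recovered reads. Timp2, a metalloprotease inhibitor, was called higher at 0.28 (SE 0.08, limma-voom adjusted p = 0.0375), and Adamts20, a protease able to cut lecticans, was called lower at -0.59 (SE 0.17, adjusted p = 0.0439). Of 20 net receptors and bound factors, 3 were called lower by limma-voom, against 6.81% of all genes. These were the integrin subunit gene Itgav at -0.66 (SE 0.17, adjusted p = 0.0311), Ptprd at -0.36 (SE 0.09, adjusted p = 0.0289) and the semaphorin receptor gene Plxna2 at -0.28 (SE 0.08, adjusted p = 0.0407). With the division as a term Itgav turned to 0.16 (SE 0.13), and Ptprd and Plxna2 stood at -0.18 (SE 0.14) and -0.14 (SE 0.12). Nrp1, Ptprd and Plxna2 were named after their values were seen. In UNC0642 mutant minus saline mutant, limma called 0 genes of each of these lists in deposited values.

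Markers of the neurons that carry nets had mostly negative differences in the same comparison. Of 19 parvalbumin interneuron markers, 17 were negative between saline mutant and wild type in the recovered reads, with a median of -0.31 against -0.01 over all genes, and 7 were called lower by limma-voom, against 6.81% of all genes. The calls over all genes fell to 13 without wild-type replicate 2 and to 17 without saline mutant replicate 1 or 3. Pvalb itself had 21.0, 26.6 and 25.7 RPM in UNC0642 mutants, 28.8, 22.1 and 31.7 in saline mutants and 36.9, 41.8 and 31.4 in wild type, a difference of saline mutant from wild type of -0.44 (SE 0.15, adjusted p = 0.0595). The fast potassium channel gene Kcnc1 stood at -0.31 (SE 0.07, limma-voom adjusted p = 0.0253), and, named after their values were seen, Kcna1 at -0.63 (SE 0.09, adjusted p = 0.00997) and the synaptotagmin gene Syt2 at -0.95 (SE 0.27, adjusted p = 0.0402). The summed level of the 19 markers ran from 1240.5 to 1331 RPM in UNC0642 mutants, from 1238 to 1297 in saline mutants and from 1423 to 1656 in wild type. With the division as a term, 15 of the 19 markers were negative, with a median of -0.32, Kcna1 stood at -0.55 (SE 0.16) and Pvalb at -0.34 (SE 0.26), neither called. Other interneuron markers had 8 positive and 9 negative members of 17, with a median of -0.02. Of these 2 were called higher, among them the somatostatin gene Sst at 0.42 (SE 0.09, limma-voom adjusted p = 0.0199). The 1 called lower was Gad1 at -0.36 (SE 0.10, limma-voom adjusted p = 0.0341). When the division was a term 16 were positive, with a median of 0.27, Sst stood at 0.27 (SE 0.13) and Gad1 at 0.01 (SE 0.11). Of 13 deep-layer markers 6 were positive and 7 negative, with a median of -0.15. Among them 2 were called lower and 1 higher, Crym at 0.75 (SE 0.17, limma-voom adjusted p = 0.0228). When the division was a term 11 were negative, with a median of -0.42, and Crym stood at 0.06 (SE 0.18). Of 15 meningeal fibroblast markers 13 were positive and 0 called, with a median of 0.47, Mgp at 0.72 (SE 0.23) and Dcn at 0.47 (SE 0.23). All 15 were positive with the division as a term, with a median of 1.10. Lower calls were not particular to the parvalbumin list. Of 15 endothelial and mural markers 6 were positive and 9 negative, with a median of -0.19, and 4 were called lower. Among these were Adgrl4 at -0.83 (SE 0.19, limma-voom adjusted p = 0.0243) and Flt1 at -0.68 (SE 0.17, adjusted p = 0.0276). The median of this list was -0.18 with the division as a term. In UNC0642 mutant minus saline mutant, the deposited values of Pvalb were wholly lower in treated libraries, at most 24.02 against at least 24.96. The log2 difference of Pvalb was -0.37 (SE 0.13) there and -0.13 (SE 0.15) in recovered reads, where its groups overlapped. Of the 19 parvalbumin markers, 13 were negative in deposited values, but 16 were positive in reads of 9 libraries. Within the 5 mutant libraries on the same side 15 were positive, and 0 were called in each fit. In bulk tissue, fewer cells of a type and less RNA per cell cannot be told apart.

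Glia make much of the brevican and versican of the brain, and their markers were read in the same way. Summed oligodendrocyte precursor markers ran from 401 to 566 RPM in UNC0642 mutants, from 397 to 498 in saline mutants and from 487 to 690.1 in wild type. Summed astrocyte markers ran from 5490.5 to 9010.4, from 6258 to 6907 and from 7180 to 9379 in the same groups, and UNC0642 replicate 3 supplied the highest treated value in both lists. Of the precursor markers 12 of 13, and of the astrocyte markers 13 of 15, were negative between saline mutant and wild type, with medians of -0.31 and -0.18; 2 precursor and 0 astrocyte markers were called lower by limma-voom, against 6.81% of all genes. With the division as a term the precursor median was 0.09 and the astrocyte median 0.33, with 14 of 15 astrocyte markers positive. Of the oligodendrocyte markers, 13 of 13 were negative and 1 was called lower, with a median of -0.76. All 13 stayed negative with the division as a term, with a median of -0.71. Their sums ran from 2759.5 to 5262 in UNC0642 mutants, from 1631 to 3762 in saline mutants and from 3248 to 5273 in wild type. Replicate 1 was the lowest of each group, and the other saline mutants stood at 3762 and 3493. Treatment was read within the 5 mutant libraries on the same side of the division. There 13 of 13 oligodendrocyte and 13 of 13 deep-layer markers were positive, with medians of 0.54 and 0.25. Of the astrocyte markers 13 of 15, and of upper-layer markers 10 of 12, were negative, with medians of -0.14 and -0.15. Precursor markers were 7 positive and 6 negative, and 0 genes of these lists were called. No gene of the parvalbumin interneuron, precursor, oligodendrocyte or astrocyte lists was at 0 reads in any library. The part of these cell types, of cortical layer and of meninges in the levels of the net genes was not tested.

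The pattern of Acan over the 9 libraries was compared with that of 14376 genes with a mean deposited value of at least 1, as a description, since the libraries share their groups and the adjustment. In deposited values the 5 genes most like Acan were the splicing factor gene Prpf8 (Pearson r 0.996), the RNA-binding protein gene Raver1 (0.974), the tetraspanin gene Tspan12 (0.973), Plekhm2 (0.967) and the selenoprotein gene Sepn1 (0.965). In recovered reads they were the cyclin gene Ccnt2 (0.980), Raver1 (0.979), Prpf8 (0.976), the Integrator subunit gene Ints1 (0.972) and the zinc transporter gene Slc30a2 (0.972). None of these is a matrix gene of the lists used here. Of the net genes, Vcan was the closest in recovered reads, with an r of 0.852, followed by Ncan (0.837), Hapln1 (0.794), Bcan (0.734) and Tnr (0.613), while Has3 (0.116) and Hapln4 (-0.269) were far from it. From the lowest to the highest library, recovered RPM spanned 14.8-fold for Acan, 2.71-fold for Vcan and 2.06-fold for Has3, and between 1.36-fold and 1.60-fold for the other 5 genes.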

How the data were processed

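The members, gene lists and tests were chosen with earlier results of these data known. Per the labels' protocols, total RNA was isolated with Trizol, and stranded libraries were prepared after depletion of ribosomal RNA. The tools HTSeq, TopHat2 and cutadapt and the build mm9 are named in the submitters' processing notes. Their versions, the normalization and the strand setting of the counting were not given in the sources used. The deposited values are a signal per gene, named CPM by the authors, with 1 column for each of 9 libraries; 9 of 9 single-library files equalled the matrix. Libraries summed to between 975390 and 1028773, and 0 values were at 0.

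The values were not plain CPM. Among 255 divisions of the libraries in 2, one equalised the mean log2 value of every gene; the next best left 0.8745 as its largest difference. Whole reads were recovered by solving, gene by gene, for the shift between the sets that made all values whole once an average prior of 3 reads was taken off (0 reads then have a value of 0.2187). Shifts were searched from small to large, and the search ended at the first range that gave a solution. Within that range each of the 14444 genes had 1 solution, and 100% of values came out whole to within 0.02 reads. The labels mention neither this step nor a batch.

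Deposited values were tested with limma trend (limma 3.58.1 in R 4.3.3) on log2(value + 0.5), which understates changes of low genes. The fit held all 9 libraries and no term but the group; p-values were adjusted over all genes by Benjamini and Hochberg and called when under 0.05. Recovered reads were tested with limma-voom as alternatives, and as the planned test within the 5 mutant libraries on the same side of the division. The scripts were tested on simulated data. Exon lengths came from GENCODE M21 and promoters from RefSeq; as both are on a later build than mm9, coordinates are given for the promoters only. Named genes were the 8 members, Hapln2, Hapln3, Pvalb, up to 4 genes of smallest p per list in UNC0642 minus saline mutant, and the 5 genes most like Acan on each scale. Genes outside this rule are marked as named after their values were seen. The choice by smallest p used the saline mutant libraries, so it was not independent of the comparison of saline mutant with wild type. Scripts ran in Python 3.11.15 with pandas 2.3.3, numpy 2.4.6, matplotlib 3.10.9 and scipy 1.17.1.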

Additional observations from a re-analysis of the deposited data

How the results depend on the processing

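In the deposited values, 0 of the 8 net genes were called in any of the 3 comparisons under other pseudocounts, a filter on low values, other scaling factors, only the 2 groups compared, or without any 1 library. Over all genes, saline mutant against wild type gave 5 calls with only the 2 groups compared, and 1725 by limma-voom on the recovered reads, with 13 to 3550 without 1 library, an alternative chosen after seeing the data; it gave 17 without saline mutant replicate 1 or 3, 96 without saline mutant replicate 2, 13 without wild-type replicate 2 and 363 without wild-type replicate 3, but 1727 without wild-type replicate 1 and 1902, 1557 and 3550 without UNC0642 replicates 1, 2 and 3. UNC0642 mutant against wild type gave 8 calls in reads and 3 when the division was added. In its deposited values, with 0 calls from all 9 libraries, it gave 0 to 4 without 1 library, the 4 without UNC0642 replicate 1. The mutant libraries on the same side of the division gave 0 to 2 calls without 1 library. For Acan, the deposited difference of UNC0642 mutant from saline mutant ran from -1.17 to -0.75 without 1 library, and that of saline mutant from wild type from -0.29 to 0.05. Acan had 4 to 64 reads per library, which limits the precision of its fold changes.

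Pairing by replicate number was not seen in the deposited values. Same-numbered libraries of different groups had correlations of deviations between -0.19 and 0.307, over 0.1 in 2 of 9 pairs. Differently numbered libraries had correlations between -0.255 and 0.268, over 0.1 in 6 of 18 pairs. As these values carry the adjustment, the correlations cannot decide whether the samples were paired. With a replicate block, 0 genes were called in each of the 3 deposited comparisons, and 184 within the mutant libraries on the same side, where the fit leaves 1 residual degree of freedom; 0 of these were net genes.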
